A study of Drosophila melanogaster with 2 samples.

Results

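Small nucleolar RNA (snoRNA) genes were taken as all rows of the deposited gene table whose name starts with snoRNA: or whose description contains snoRNA. The wording matched 164 of 15627 genes. Of these, 162 were snoRNA genes and 2 were the host genes Uhg1 and Uhg2, which contain snoRNA genes and were therefore described as hosts. The table gave no symbol for any of the 162, so they are called by the name in their description. Of the 162 names, 159 matched a symbol or synonym in a RefSeq table, and all 159 were typed there as snoRNA.

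The study mapped dBigH1, the linker histone H1 variant of the early Drosophila embryo and germ line. The ChIP group was 1 library of chromatin precipitated with an antibody against dBigH1 from w1118 embryos at 0 to 2 h after fertilization. The input group was 1 library of DNA from w1118 embryos of the same age, prepared with no antibody, and w1118 is a laboratory stock with white eyes. Each library came from many embryos, so a ratio averages over their nuclei, and more dBigH1 in a few nuclei cannot be told apart from slightly more in all. With 1 library per group there was no replicate check, no test was possible and no p-value is given. Every 95% interval of a ratio covers counting error alone and takes each read as independent. Whether PCR copies of one fragment were removed is not given in the sources available, and copies left in would make these intervals too narrow. An interval of a median rests instead on the spread of the genes in its group. DNA libraries hold no marker transcripts, so the labelled stage was not checked.

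snoRNAs guide the chemical modification of other RNAs in the nucleolus. C/D box snoRNAs pair with ribosomal RNA and direct the enzyme Fibrillarin to methylate a ribose, and H/ACA box snoRNAs direct a pseudouridine synthase to convert a uridine to pseudouridine. In animals most snoRNAs are cut from the introns of a host gene, often a gene of the protein synthesis machinery, and in Drosophila many lie in tandem copies within a single host. The names in the table give the target: Me28S and Me18S genes guide methylation of the 28S or 18S ribosomal RNA, Psi28S and Psi18S genes guide pseudouridine formation there, and Or-aca genes are H/ACA genes with no assigned target.

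Over the 162 snoRNA genes, the ratio of dBigH1 ChIP to input was close to that over all genes. They held 1810 ChIP reads and 1246 input reads, 0.0348% and 0.0337% of the reads over genes. Scaled by the totals of the libraries (8803832 and 6272887), the summed reads gave a log2 ratio of ChIP to input of 0.05, with an interval of -0.06 to 0.15. Summed over all genes the log2 ratio was 0.0051. With this scaling a value near 0 is signal near the library average, and it does not show that dBigH1 was absent. The median of the single genes was 0.03, on the scale of log2((ChIP RPKM + 1)/(input RPKM + 1)), where RPKM is the read count scaled to gene length and library total. The quartiles were -0.41 and 0.47, and 86 genes lay above and 76 below the median over all genes (the all-gene median), which was -0.04.

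The snoRNA genes were 55 to 268 bp wide, so each held few reads. ChIP reads per gene ran from 2 to 25 with a median of 11, and input reads from 1 to 18 with a median of 7. The median gene of the whole table had 98 and 74 reads. The gene with the most reads was snoRNA:Psi18S-640b in Arc-p34, with 20 ChIP and 18 input reads and a log2 ratio of -0.32 (interval -1.26 to 0.63). The gene with the fewest was snoRNA:snR38:54Eb in Uhg1, with 2 reads in each library. The width of these intervals means that differences between single snoRNA genes were mostly not detectable at this depth.

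**Figure D1:**
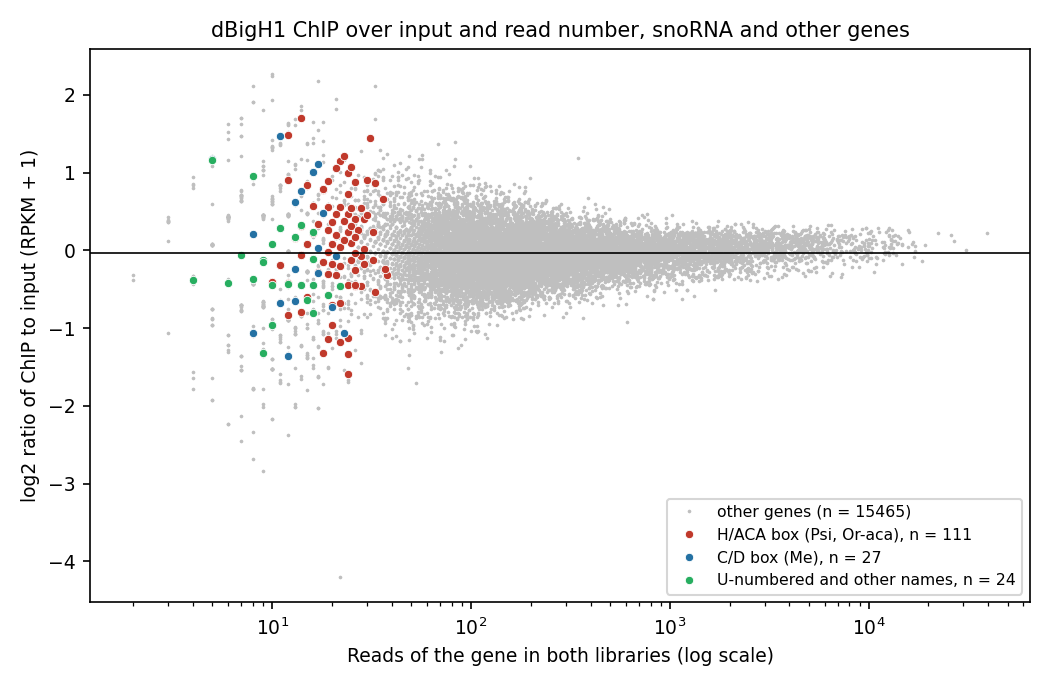
Each point is a gene, with its reads in both libraries on a log axis and its log2 ratio of ChIP to input on the vertical axis; the line is the all-gene median, -0.04. The coloured snoRNA genes, with 4 to 38 reads each, lie at the left, where other genes with as few reads (grey) also spread widely. Red marks H/ACA genes, blue C/D genes named Me and green all others.

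At or past 2-fold, 15 snoRNA genes were higher in the ChIP, 9.26% of them, and 10 were lower, 6.17%. Over all genes the shares were 0.787% higher and 1.17% lower. Among the 860 other genes of 55 to 268 bp they were 8.72% higher and 16% lower, so the share of higher snoRNA genes was near that of genes equally short. Of 291 transfer RNA (tRNA) genes, 18 were higher and 76 lower. Of the 338 equally short genes that were neither tRNA nor microRNA genes, 34 were higher and 37 lower. By interval, 1 snoRNA gene (0.617%) lay above the all-gene median and 2 (1.23%) lay below it. The shares were 10.6% and 9.59% among all genes and 0.698% and 2.67% among the equally short genes.

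RPKM of snoRNA genes was above that of longer genes in both libraries. Their median RPKM was 9.91 (ChIP) and 9.14 (input), against 6.38 and 6.51 for all genes. Median input RPKM of snoRNA genes was 11.6 at 50 to 99 bp and 8.28 at 150 to 300 bp. Whether reads that cross the edge of a gene account for this was not tested. By width, the median log2 ratio was -0.20 (-0.45 to 0.21) for the 46 genes of 50 to 99 bp and -0.06 (-0.21 to 0.17) for the 49 of 100 to 139 bp. It was 0.15 (-0.04 to 0.46) for the 46 of 140 to 149 bp and 0.08 (-0.18 to 0.34) for the 21 of 150 to 300 bp. All 4 intervals overlap each other. Other genes of those 4 widths had medians of -0.21, -0.19, 0.21 and 0.02, where 0.21 comes from 20 genes (-0.43 to 0.64).

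Transfer RNA genes, which are also short and make no protein, had less ChIP signal than snoRNA genes. The 291 tRNA genes held 1677 ChIP and 1673 input reads, a log2 ratio of -0.49 (interval -0.58 to -0.39), which does not overlap the interval of the snoRNA genes. The median width was 73 bp for tRNA genes and 137 bp for snoRNA genes. The 46 snoRNA genes of 50 to 99 bp gave -0.15 (-0.39 to 0.087), whose lower end touches the interval of the tRNA genes. The 233 microRNA genes held 1797 and 1333 reads, a log2 ratio of -0.06 (-0.16 to 0.05), which overlaps the interval of all snoRNA genes. The 338 equally short genes of neither kind gave -0.07 (-0.15 to 0.00). The median input RPKM was 11.2 for tRNA genes and 9.16 for microRNA genes, and the part of repeated sequence in these differences was not tested.

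Among the C/D box genes, the 20 that guide methylation of 28S ribosomal RNA had a median log2 ratio of -0.09, from -1.36 (snoRNA:Me28S-A992, 4 ChIP and 8 input reads) to 1.17. Their summed reads, 172 and 132, gave -0.11 (-0.44 to 0.23). The 6 genes for 18S methylation had 42 and 29 reads, a log2 ratio of 0.05 (-0.67 to 0.78). The intervals of both classes contained 0. Of the 8 genes with other names, 6 were given no box type, the others being the pair of snR38 genes. Together the 8 had 46 and 44 reads, a log2 ratio of -0.42 (-1.05 to 0.21). The single gene for methylation of the U6 spliceosomal RNA, snoRNA:MeU6-A47 in Hlc, had 7 and 4 reads.

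The 16 genes with U numbers, which are C/D box genes first known from other species, summed to 103 ChIP and 86 input reads, a log2 ratio of -0.23 (-0.66 to 0.20). U3, which acts in the cutting of the ribosomal RNA precursor, has 3 genes in the table. snoRNA:U3:54Aa had 9 and 7 reads (log2 ratio -0.11), snoRNA:U3:54Ab 5 and 4 (-0.13) and snoRNA:U3:9B 4 and 4 (-0.37). They were alike, and each interval spanned more than 2 log2 units. The input RPKM of the U3 genes was low for snoRNA genes, at 6.45, 3.69 and 3.80.

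The pair of U14 genes, whose RNA is needed in other species to make 18S ribosomal RNA, lies in Uhg2. snoRNA:U14:30Eb had 4 ChIP reads and 1 input read (log2 ratio 1.15, interval -1.43 to 2.93). snoRNA:U14:30Ea had 7 and 4 reads (0.29, interval -1.48 to 2.13). In RpL14, snoRNA:U49:66Da had 11 and 11 reads (-0.46) and snoRNA:U49:66Db had 8 and 5 (0.17). The read numbers do not separate the members of either pair.

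The remaining U genes lie in Uhg1. The U29 genes had 5 and 4 reads at snoRNA:U29:54Eb (-0.15), 8 and 8 at snoRNA:U29:54Ec (-0.45) and 6 and 4 at snoRNA:U29:54Ed (0.08). The U31 genes had 7 and 9 reads at snoRNA:U31:54Eb (-0.80), 7 and 8 at snoRNA:U31:54Ec (-0.64) and 3 and 3 at snoRNA:U31:54Ed (-0.42). snoRNA:U27:54Ea had 6 and 2 reads (0.95), snoRNA:U27:54Eb 10 and 6 (0.23) and snoRNA:U76:54Eb 3 and 6 (-1.32). The 3 U31 genes all lay below the all-gene median and both U27 genes above it, with summed log2 ratios of -0.72 (-1.75 to 0.28) and 0.51 (-0.80 to 1.94), whose intervals overlap.

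H/ACA box genes made up 111 of the 162 and held 1440 ChIP and 951 input reads, a log2 ratio of 0.11 (-0.01 to 0.23). The 61 Psi28S genes had a log2 ratio of 0.18 (0.02 to 0.35) from 787 and 495 reads, the highest among classes of 2 or more genes, with a median of 0.19 and 43 genes above the all-gene median. The 45 Psi18S genes had 586 and 399 reads and a log2 ratio of 0.07 (-0.12 to 0.25). The 5 Or-aca genes gave -0.26 (-0.79 to 0.28) from 67 and 57 reads. The 27 C/D box genes named Me had -0.07 (-0.36 to 0.23), and the intervals of both box types overlap. Without the 8 genes in exba, the Psi28S value was 0.11 (-0.07 to 0.29). The value turned to -0.014 for the 28 Psi28S genes at least 50 bp from another snoRNA gene and to -0.11 for the 22 with no copy. Psi28S genes closer than 50 bp to another may share reads with it, which would make the interval of all 61 too narrow.

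**Figure D2:**
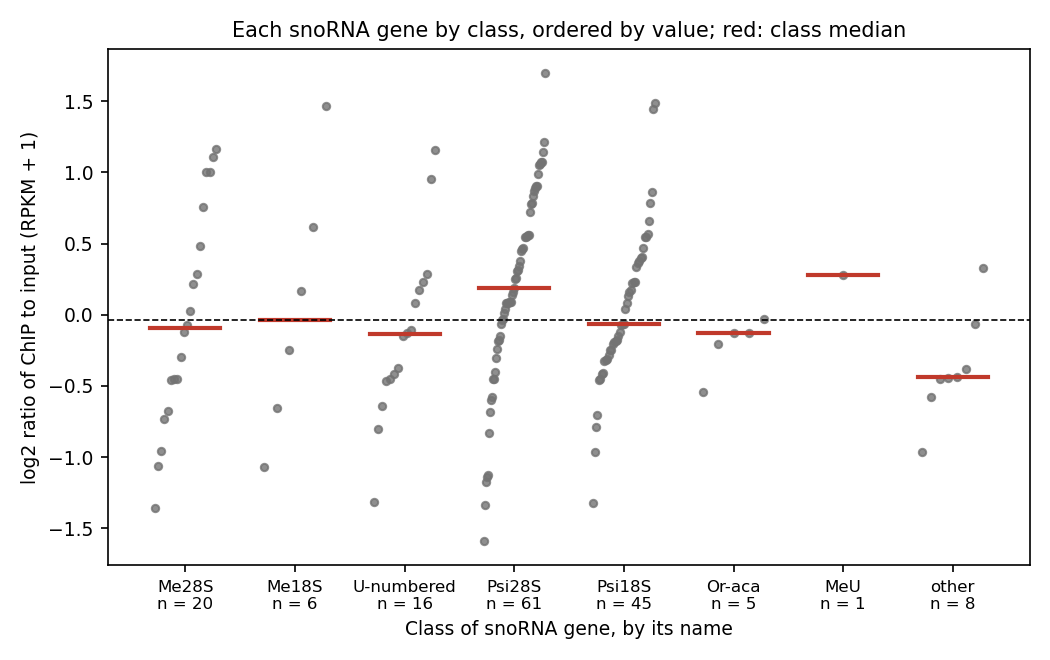
Each point is a snoRNA gene, ordered by its log2 ratio of ChIP to input within its class; red lines are class medians and the dashed line is the all-gene median. Classes overlap over nearly their whole range, with the Psi28S median at 0.19 and the Me28S median at -0.09.

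Summed over genes, snoRNAs with copies had more ChIP signal than those with none, while the medians of the single genes overlapped. Genes whose names differ only by a final letter or a map position were counted as a family, a grouping made after the values were seen. The 112 genes in 34 families of 2 or more held 1306 and 837 reads, a log2 ratio of 0.15 (0.03 to 0.28), and the 50 genes with no copy held 504 and 409 reads, -0.19 (-0.38 to 0.0041). The intervals do not overlap, nor do they without the genes in exba, at 0.13 (-0.0038 to 0.26) for 106 genes and -0.24 (-0.43 to -0.042) for 48. Only 13 of the 74 H/ACA genes in families were 50 bp or more from another snoRNA gene. Those 13 held 157 and 98 reads, a log2 ratio of 0.19 (-0.18 to 0.57). The other H/ACA genes in families may share reads with a neighbour, which would make the family intervals too narrow. The medians were 0.06 (-0.12 to 0.23) in families and -0.06 (-0.44 to 0.14) with no copy. At or past 2-fold, 15 of the 112 family genes were higher and 2 lower, and of the 50 with no copy 0 were higher and 8 lower. The shares were 0.787% higher and 1.17% lower over all genes, and 8.72% and 16% among the equally short genes. Some of these genes held very few reads, such as snoRNA:Me28S-A982b with 4 ChIP reads and 1 input read.

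The 65 genes under 50 bp from another snoRNA gene, all of H/ACA type, gave 0.22 (0.07 to 0.38), and the 97 farther apart gave -0.10 (-0.25 to 0.04). A read of 50 nt can overlap 2 neighbours there and may have been counted in both, which would make the first interval too narrow. The 46 H/ACA genes at least 50 bp apart gave -0.060 (-0.25 to 0.13), an interval that overlaps that of the 65, and the medians were 0.17 (close) and 0.08 (apart). Among H/ACA genes alone, the 74 with copies gave 0.22 (0.07 to 0.37) and the 37 without gave -0.12 (-0.33 to 0.09), intervals that overlap slightly, with medians of 0.17 and 0.08. Median input RPKM was 9.11 for genes in families and 9.52 for genes with no copy. The sources used here do not say how reads from near-identical copies were placed, and the part of this in these values was not tested.

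**Figure D3:**
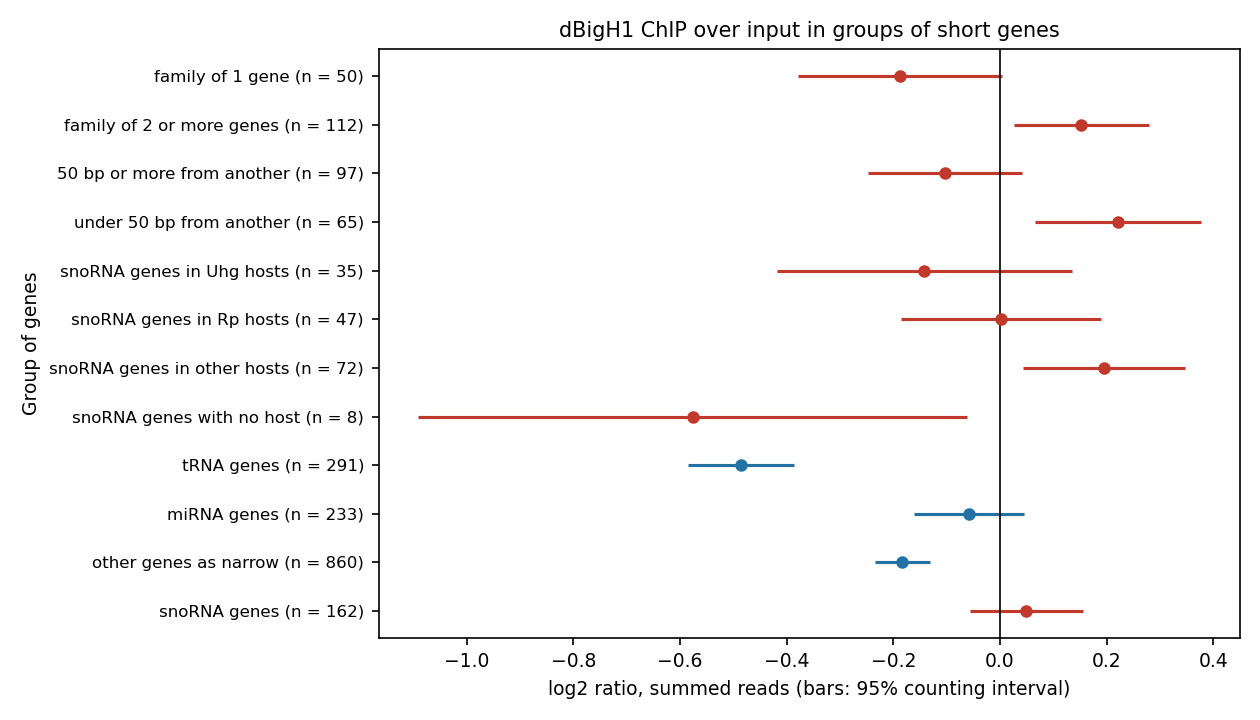
Points are log2 ratios of ChIP to input from the summed reads of each group of genes, with 95% counting intervals; red groups are snoRNA genes and blue groups are other short genes, and the vertical line is at 0. Families of 2 or more genes lie at 0.15 and genes with no copy at -0.19, while tRNA genes lie at -0.49.

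Of the 162 snoRNA genes, 154 lay wholly inside another gene of the table, taken as the narrowest gene that contains them, and 152 of these were on the strand of that gene. The exceptions were snoRNA:Or-aca4 in CG10936 and snoRNA:Psi28S-2622 in stet. There were 42 such hosts: 13 held 4 or more snoRNA genes and 109 of them in all, 11 held 2 or 3, and 18 held 1. The table gives whole genes, so whether a snoRNA gene is in an intron was not read from it. Reads of a snoRNA gene are also reads of its host. The host was therefore compared after subtracting them, where a read across an edge or over 2 neighbours may be subtracted more than once.

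Summed over all 42 hosts, snoRNA genes had 1746 ChIP and 1178 input reads, a log2 ratio of 0.08 (-0.03 to 0.19), and the rest of the hosts had 18427 and 13606 reads, -0.05 (-0.08 to -0.02). These sums weigh the hosts differently. The long hosts Msp-300, tou and CG10936 gave 6566, 2440 and 2254 of the ChIP reads of the rest. They gave only 25, 18 and 14 of the snoRNA ChIP reads. The snoRNA value was above that of the rest in 24 hosts and below it in 17. Over the 20 hosts with at least 40 snoRNA reads, the values of snoRNA genes and of the rest were hardly related (Pearson r = 0.16 and Spearman rho = -0.0030 across hosts), and these points share libraries and rest on few reads. In 5 of the 20 the snoRNA interval excluded the value of the rest, which has counting error of its own. These were exba, RpS5a, Hrb98DE, RpL17 and pAbp, each with the snoRNA value higher. Host genes as a group had a median log2 ratio of -0.08, close to that of all genes.

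The hosts of ribosomal protein genes, 17 of the 42, had as whole genes 1765 ChIP and 1403 input reads, a log2 ratio of -0.16 (-0.26 to -0.06). The other 72 ribosomal protein genes gave -0.39 (-0.45 to -0.32). The 47 snoRNA genes inside ribosomal protein genes gave 0.00 (-0.18 to 0.19), and the rest of those hosts -0.23 (-0.35 to -0.11). The interval of the snoRNA genes overlaps that of the rest of their hosts but not that of the other ribosomal protein genes.

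The 35 snoRNA genes in the 6 Uhg genes, hosts that make no known protein, gave -0.14 (-0.42 to 0.14), and the rest of those hosts 0.04 (-0.14 to 0.22). The intervals overlap, and the snoRNA value was above the rest in 3 of the 6 hosts and below it in 3. The 72 in 19 other hosts gave 0.20 (0.04 to 0.35), and the rest of those hosts -0.04 (-0.07 to -0.01). Msp-300, tou and CG10936 weigh most in that rest too. By single host, the snoRNA value was above the rest in 13 of the 19 and below it in 6. Without the 8 genes in exba, the snoRNA value in other hosts was 0.14 (-0.02 to 0.30).

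The largest value of a host with 4 or more snoRNA genes was that of exba, on 3R, whose 8 H/ACA genes had 123 ChIP and 56 input reads, a log2 ratio of 0.65 (0.18 to 1.13). The rest of exba had 305 and 266 reads, -0.29 (-0.53 to -0.05), and the intervals do not overlap. As a whole gene, with 1 RPKM added, exba was at -0.07 (-0.26 to 0.12). Libraries were selected for 300 to 350 bp, so a fragment can reach from a snoRNA gene into the rest of its host. All 8 genes lay above the all-gene median. They were snoRNA:Psi28S-3385b (17 ChIP and 7 input reads, log2 ratio 0.72), snoRNA:Psi28S-3385a (17 and 12, 0.01), snoRNA:Psi28S-3091b (19 and 6, 1.07), snoRNA:Psi28S-3091a (13 and 9, 0.04), snoRNA:Psi28S-3571 (18 and 6, 0.99), snoRNA:Psi28S-3186 (11 and 4, 0.83), snoRNA:Psi28S-2442b (12 and 7, 0.26) and snoRNA:Psi28S-2442a (16 and 5, 1.06). Each of the 8 intervals contained the all-gene median, so only the sum stands clear of it, and exba was 1 of 42 hosts. Close neighbours such as snoRNA:Psi28S-3385a and snoRNA:Psi28S-3091b, 16 bp apart, may share reads, which would make the interval of the sum too narrow.

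Arc-p34, which codes for a subunit of the Arp2/3 actin complex and lies on 2L, held the most snoRNA genes, 17, with 10 copies of Psi18S-525 interleaved with 7 of Psi18S-640. Together they had 208 and 142 reads, a log2 ratio of 0.06 (-0.25 to 0.38), and the rest of the gene -0.05 (-0.37 to 0.27). Both families gave 0.06, from 110 and 75 reads for Psi18S-525 and 98 and 67 for Psi18S-640. Single copies of Psi18S-525 there ran from -0.79 to 1.49.

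RpS5a, a gene of the small ribosomal subunit on the X, held 14 H/ACA genes with 173 and 104 reads, a log2 ratio of 0.25 (-0.11 to 0.61), and the rest of the gene had 88 and 83, -0.40 (-0.85 to 0.05). Its 6 copies of Psi28S-1135 gave 0.51 (-0.05 to 1.09), its 4 of Psi28S-1192 0.22 (-0.51 to 0.96) and its 3 of Psi18S-1854 0.06 (-0.70 to 0.84). The highest ratio of any snoRNA gene was that of snoRNA:Psi28S-1135b here, 1.70 from 12 ChIP and 2 input reads; it was named after its value was seen.

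Of the other hosts with several H/ACA genes, dom, a chromatin remodeller gene on 2R, held 12 with 172 and 103 reads (0.25, interval -0.11 to 0.62), and the rest of it was at -0.06. Hrb98DE, an RNA-binding protein gene on 3R, held 7 with 99 and 54 reads (0.39, -0.11 to 0.89; rest -0.15), and RpS7, also on 3R, 7 with 95 and 70 (-0.05, -0.51 to 0.42; rest -0.46). CG10576 held 5 snoRNA genes with 57 and 35 reads (0.21, -0.42 to 0.87; rest -0.35). RpS16 held 4 with 65 and 51 (-0.14, -0.69 to 0.42; rest -0.07) and RpL17 4 with 43 and 25 (0.29, -0.45 to 1.07; rest -0.55). The snoRNA value was above the rest of the host in 5 of these 6 and the intervals overlapped in all 6. The snoRNA intervals of Hrb98DE and RpL17 nevertheless lay just above the value of the rest.

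The 4 hosts with 4 or more C/D genes lay between -0.49 and -0.09. Uhg5 on 2R held 10 methylation guides with 64 and 64 reads, a log2 ratio of -0.49 (-1.01 to 0.03), and the rest of it was at 0.02 (-0.39 to 0.44). Uhg1 on 2R held 11 (the U genes above and a pair of snR38 genes) with 61 and 55 reads (-0.34, -0.89 to 0.21; rest -0.01), and Uhg4, with 4 C/D and 2 H/ACA genes, 50 and 45 (-0.34, -0.95 to 0.28; rest 0.10). In Nop60B, the gene of the pseudouridine synthase of H/ACA particles, 4 copies of Me28S-G1083 had 37 and 28 reads (-0.09, -0.83 to 0.68; rest -0.06). None of these 4 snoRNA intervals excluded the value of the rest of the host, and the intervals overlapped in all 4.

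Among hosts with fewer snoRNA genes and at least 40 snoRNA reads, Uhg7 was highest. Its 3 copies of Me28S-A2634 had 13 and 4, 12 and 4, and 12 and 6 reads, a summed log2 ratio of 0.91 (-0.01 to 1.91). RpS4 (40 and 19 reads, 0.58) and pAbp, the poly(A)-binding protein gene (54 and 29, 0.41), followed. Toward the low end were RpS20 (20 and 20, -0.49) and CG13900 (44 and 29, 0.11). The interval of Uhg7 lay just above the all-gene median and contained 0, and the other 4 contained the all-gene median.

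**Figure D4:**
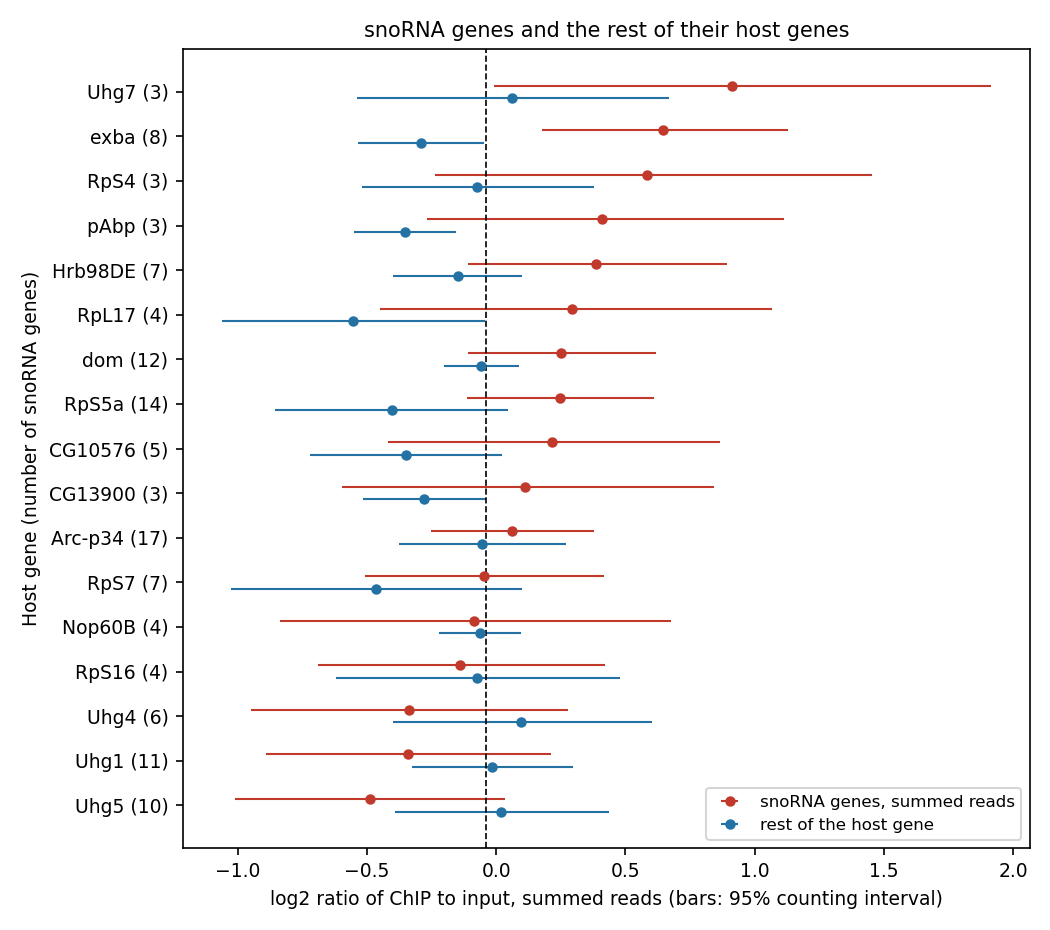
For each named host with 3 or more snoRNA genes, the red point is the log2 ratio of ChIP to input from the summed reads of its snoRNA genes and the blue point that of the rest of the host, with 95% counting intervals; the dashed line is the all-gene median. Only in exba do the red and blue intervals of the 17 hosts not overlap.

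**Figure D5:**
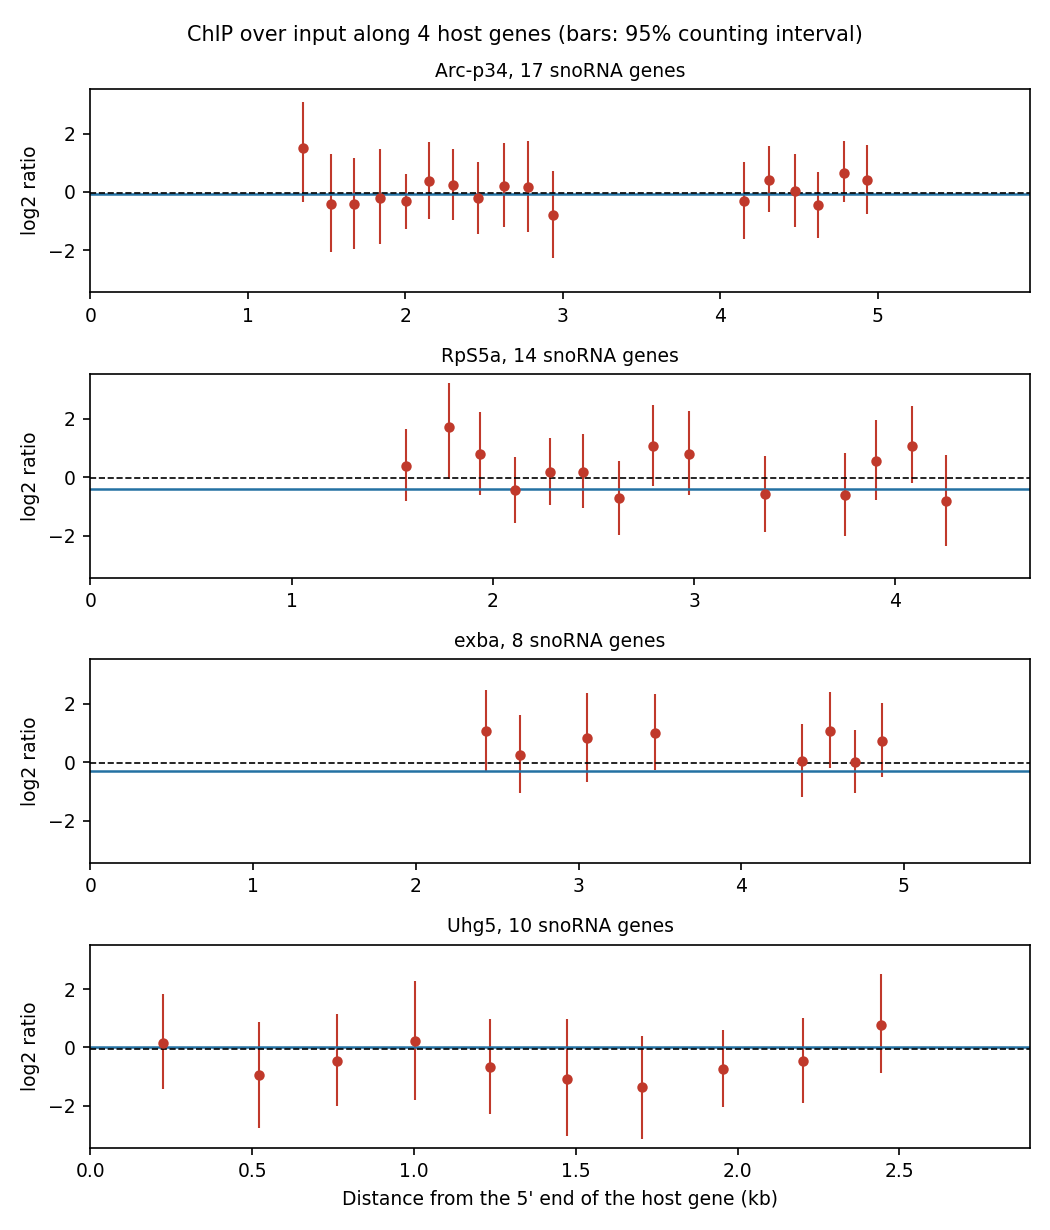
Each point is a snoRNA gene at its distance from the start of its host, with its log2 ratio of ChIP to input and 95% counting interval; the blue line is the rest of the host and the dashed line the all-gene median. The 8 genes of exba all lie above the blue line at -0.29, and 7 of the 10 of Uhg5 below the dashed line.

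The 8 snoRNA genes not wholly inside another gene of the table had 64 ChIP and 68 input reads, a log2 ratio of -0.58 (-1.09 to -0.06). They are the 3 U3 genes, snoRNA:185, snoRNA:Psi28S-1153, snoRNA:Psi18S-176, snoRNA:Psi18S-301 and snoRNA:Psi28S-3342, and 7 of the 8 lay below the all-gene median. The exception was snoRNA:Psi18S-176, with 17 and 8 reads (0.54). snoRNA:Psi18S-301 had 6 and 12 reads (-1.32) and snoRNA:Psi28S-3342 8 and 16 (-1.34, interval -2.52 to -0.16).

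The 10 lowest and 10 highest snoRNA genes were ranked among the 74 with at least 20 reads. Lowest was snoRNA:Psi28S-2949 in Uhg4, at 2R 4982877 to 4983031 of the dm3 build, with 7 ChIP reads (5.13 RPKM) and 17 input reads (17.5 RPKM) (-1.59, interval -2.81 to -0.39). It and snoRNA:Psi28S-3342, at X 5418335 to 5418498, were the 2 snoRNA genes whose interval lay below the all-gene median. The 10 also held snoRNA:Psi28S-2562 in RpS20 (-1.13), snoRNA:Psi18S-996 in Tudor-SN (-0.96), snoRNA:Me28S-G2703a in Uhg5 (-0.73), snoRNA:Psi18S-1854b in RpS5a (-0.70), snoRNA:Psi28S-1153 (-0.68) and snoRNA:Or-aca3 in RpL4 (-0.54).

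Highest was snoRNA:Psi18S-841b in dom, at 2R 17217781 to 17217918, with 25 ChIP reads (20.6 RPKM) and 6 input reads (6.93 RPKM) (1.44, interval 0.23 to 2.75). It was the 1 snoRNA gene whose interval lay above the all-gene median. The next were snoRNA:Psi28S-3305a in Hrb98DE (1.21), snoRNA:Psi28S-3327a in RpS4 (1.14), snoRNA:Psi28S-3091b in exba (1.07), snoRNA:Psi28S-1192c in RpS5a (1.07), snoRNA:Psi28S-2442a in exba (1.06), snoRNA:Psi28S-1135f in RpS5a (1.05), snoRNA:Psi28S-3571 in exba (0.99), snoRNA:Psi28S-3316e in dom (0.90) and snoRNA:Psi28S-1837b in CG10576 (0.87). All 10 were H/ACA genes, as were 8 of the 10 lowest. The 74 ranked genes were mostly of that type, with 36 Psi28S, 29 Psi18S and 4 Or-aca genes. Of the 10 highest, 9 belong to a family of copies, against 3 of the 10 lowest and 112 of all 162 snoRNA genes.

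By chromosome, the 63 snoRNA genes on 2R gave a summed log2 ratio of -0.10 (-0.27 to 0.08), the 28 on 3R 0.13 (-0.10 to 0.37), the 25 on X 0.12 (-0.16 to 0.40), the 24 on 3L 0.20 (-0.08 to 0.48) and the 22 on 2L 0.09 (-0.20 to 0.38). All 5 intervals contained 0 and overlapped each other. All genes of the X together gave -0.10, and 14 of its 25 snoRNA genes were those of RpS5a.

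The genes of the proteins that build, process and work with snoRNAs had a median log2 ratio of -0.23. Of 19 such genes on a list, 15 were under and 4 over the all-gene median. By interval, 2 were lower, 10.5% of the list against 9.59% of all genes, and 0 were higher. Fib, which codes for the methyltransferase Fibrillarin, was lowest, with 66 ChIP and 96 input reads (-0.88, interval -1.27 to -0.48). It also hosts snoRNA:229, with 9 and 10 reads (-0.58). NHP2, of the H/ACA particle, had 44 and 53 reads (-0.67, interval -1.20 to -0.14).

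The other proteins of the C/D particle were at -0.35 (nop5), -0.24 (Nop56) and -0.23 (hoip). Those of the H/ACA particle were at -0.76 (CG7637, Nop10 in other species), -0.42 (CG4038, Gar1 in other species) and -0.06 (Nop60B). Of the factors of U3, of particle assembly and of the nucleolus or Cajal body, CG10341 was at -0.23, Nopp140 at -0.28, U3-55K at -0.36, wcd at -0.10, coil at -0.07, pont at -0.07 and rept at 0.23. Those that free snoRNAs from introns and trim them were at 0.12 (ldbr, the lariat debranching enzyme), 0.11 (Rrp6), -0.17 (Dis3) and -0.0045 (Rat1), and apart from Fib and NHP2 every interval in the list contained the all-gene median.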

How the data were processed

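Per the labels' protocols, both libraries were made from 3.5 ng of DNA, selected for 300 to 350 bp, amplified by 18 PCR cycles and sequenced as single 50 nt reads. The build dm3, CASAVA 1.9, R 2.15, FastQC 0.10 and Bowtie2 appear in the submitters' processing notes without their roles. How reads were filtered and counted is not given in the sources available. The authors deposited a log2 value per whole gene and library and, per the file headers, a MAnorm score, which was used for direction only. From the values, the deposited log2 is log2(RPKM + 1), and reads were recovered as whole numbers, within 1e-05 reads for 100% of values, with at least 1 read per gene in each library.

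Ratios of single genes add 1 RPKM, which pulls low signals toward 0. Ratios of summed reads add nothing. Intervals of ratios are exact Clopper-Pearson intervals of the ChIP share of reads. Intervals of medians are order-statistic intervals over the genes of a group. A gene counted as higher when its log2 ratio reached 1 and as lower when it reached -1. Named genes are those with U numbers, the 10 lowest and 10 highest with at least 20 reads, those with most and fewest reads, the genes on the list of snoRNA proteins, hosts with 4 or more snoRNA genes, and the 3 lowest and 3 highest other hosts with at least 40 snoRNA reads. The 8 genes of exba, those without a host and a few others were named after their values were seen. The members and lists were chosen with earlier results of these data known. Reads summed over genes were 5206548 (ChIP) and 3696767 (input). The RefSeq table (Release 6) was used for names only. Alternatives were other pseudocounts, scalings, read minimums, host rules and member sets. The tools were matplotlib 3.10.9, scipy 1.17.1, pandas 2.3.3, numpy 2.4.6 and Python 3.11.15, and the procedure was tested on simulated data. Of the genes and hosts this rule names, a few are not reported here. No promoter or RNA sequence was analysed here.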

Additional observations from a re-analysis of the deposited data

How the results depend on the processing

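No paired analysis was possible because each group had 1 library. Of 490 recomputed values, 27 moved: a ratio or a median left its interval, a count changed by over 1.5 times or the sign differed on the deposited score. Another 2, with an interval that excluded 0, changed sign. Sign changes within an interval that contained 0 were not counted. The 2 were those of Psi28S genes, whose summed log2 ratio was -0.014 for genes at least 50 bp from another snoRNA gene and -0.11 for genes with no copy. With the same restrictions, chosen after the data were seen, all snoRNA genes gave -0.10 and -0.19 and H/ACA genes -0.060 and -0.12; what part copies and spacing each have was not tested.

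The counts of snoRNA genes past 2-fold were 2 higher and 2 lower with 5 RPKM added, and 7 and 5 among genes with at least 20 reads. Over all genes they were 26 and 59, and 40 and 47, and with nothing added 187 and 289. With at least 20 reads the medians were -0.59 (Me28S), -0.73 (Uhg hosts), 0.28 (other hosts), -0.46 (50 to 99 bp) and -0.036 (other short genes). On the deposited score, the medians turned positive for Me18S (0.22), Me28S (0.14), Psi18S (0.11), ribosomal protein hosts (0.11) and 100 to 139 bp (0.11). The tRNA median was -0.49 and -0.47 with 0 and 0.5 RPKM added and -0.47 when scaled to reads over genes. The cause of these shifts was not tested. Scaling to reads over genes moved ratios of summed reads by -0.01, and centring moved medians by 0.04. Depth limits single genes: 121 of the snoRNA genes had under 10 input reads. No snoRNA genes overlapped, so merging them changed nothing.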
